A study of Mus musculus with 8 samples.

Results

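Vip interneuron nuclei were examined in single-nucleus RNA sequencing of perilesional forebrain, the tissue around the injury site. A nucleus was taken as one of them by its counts of unique molecular identifiers (UMIs), each UMI being 1 captured RNA molecule. Its barcode held 1000 UMIs or more from 300 genes or more, with no more than 5% of the UMIs mitochondrial. It also needed at least 2 UMIs of Gad1 and Gad2 together, which encode the enzymes that make GABA, and at least 2 UMIs of Vip, which encodes vasoactive intestinal peptide. At most 3 UMIs of Sst, 1 of Pvalb and 1 of the glutamate transporters Slc17a7 and Slc17a6 together were allowed, and none of the glial genes Mog, Aqp4 and Cx3cr1. In all, 321 nuclei met these limits, out of 44762 that passed the quality limits and 53390 deposited barcodes. They made up part of 5125 GABA nuclei, defined by the same Gad, glutamate transporter and glial limits alone.

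The tissue was a cube of 2 mm per side from male Swiss Webster mice aged 10 weeks. There were 4 groups of 2 libraries each: mice with control surgery, mice with BCAS surgery, mice with TBI (traumatic brain injury) surgery, and mice with both (BCAS+TBI). BCAS is given only as an abbreviation, and the title of the study ties it to cerebral hypoperfusion, which is reduced blood flow to the brain. The labels call the 2 libraries of a group biological replicates and give neither the time from surgery to collection nor how many mice went into a library.

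Vip interneurons are inhibitory neurons of the cortex that arise in the caudal ganglionic eminence, together with Lamp5 interneurons, whereas Sst and Pvalb interneurons arise in the medial ganglionic eminence. They release GABA and the VIP peptide, and many of them contact other inhibitory neurons, above all Sst cells, so that their firing can free pyramidal cells from inhibition. Part of them carry cholecystokinin (Cck), others calretinin (Calb2), enkephalin (Penk) or the acetylcholine-making enzyme Chat. Transcription of the Vip gene is a classic target of cAMP signalling, through the factor CREB.

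The 250 bases before the start of the Vip gene are shown because Vip is the gene that defines these nuclei, and those of Cck because Cck splits them further below. Both come from RefSeq on GRCm38.p6, 5′ to 3′ along each gene, at chr10:5638968-5639217 on the plus strand for Vip and chr9:121495695-121495944 on the minus strand for Cck. Capitals mark TGACG, the core of the site bound by CREB, or CGTCA, its form on the other strand.
Vip: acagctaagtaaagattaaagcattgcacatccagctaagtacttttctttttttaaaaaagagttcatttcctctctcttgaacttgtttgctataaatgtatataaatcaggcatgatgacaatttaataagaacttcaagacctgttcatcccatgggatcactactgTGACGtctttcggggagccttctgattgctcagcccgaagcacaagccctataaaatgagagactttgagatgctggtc
Cck: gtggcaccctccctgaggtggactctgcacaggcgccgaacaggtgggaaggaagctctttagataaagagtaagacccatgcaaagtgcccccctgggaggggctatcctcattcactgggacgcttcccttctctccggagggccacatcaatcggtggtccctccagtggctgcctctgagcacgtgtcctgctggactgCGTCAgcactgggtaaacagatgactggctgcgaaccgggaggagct
The Vip window holds TGACG once, 79 bases before the start, and the Cck window holds it once on the other strand, 47 bases before the start. TGACG was found on either strand in 17.8% of 32851 windows of this length (27025 genes), and the complete site TGACGTCA, which contains it, in 1.55%. The complete site was in neither window. Among other genes described here, the window of Chat held 1 match, 171 bases before the start, and those of Tac2, Cxcl14 and Adarb2 held none. A match of letters is a description of the sequence and shows no binding.

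Control 1 and control 2 gave 24 and 58 Vip nuclei, BCAS 1 and BCAS 2 gave 33 and 52, TBI 1 and TBI 2 gave 27 and 60, and BCAS+TBI 1 and BCAS+TBI 2 gave 44 and 23. Every library had enough nuclei to be used on its own, so none were pooled. Counts were summed over the Vip nuclei of a library, giving 89718 to 420497 UMIs, and levels are given as CPM, the count scaled to a sum of 1000000 UMIs. The median Vip nucleus held 5126 UMIs. Any pair of libraries shared 4 to 13 barcodes among the nuclei kept, and no shared barcode met the Vip limits in both.

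The libraries fell into 2 sets by total UMIs, and each set held 1 library of every group. Control 1, BCAS 1, TBI 1 and BCAS+TBI 2 were the shallower set, with 107 Vip nuclei and a median of 3729 UMIs per nucleus. The 4 deeper libraries gave 214 Vip nuclei with a median of 5908 UMIs. Mitochondrial genes took 1.27% to 2.13% of the UMIs of Vip nuclei in the shallower set and 0.458% to 0.768% in the deeper set. The split was also visible across genes, as the first principal component of the Vip sums held 36.6% of the variance and separated both sets.

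Vip itself, which the limits used, was far from even across these sets. Its level in Vip nuclei was 5707 and 1874 CPM in control 1 and 2, 6129 and 1670 CPM in BCAS 1 and 2, 5043 and 1867 CPM in TBI 1 and 2, and 2023 and 4806 CPM in BCAS+TBI 1 and 2. All shallower libraries (4806 to 6129 CPM) thus lay above all deeper ones (1670 to 2023 CPM), in each of the 4 groups. The median Vip nucleus held 14 to 16 UMIs of Vip in the shallower libraries and 7 to 12 in the deeper ones, so the order was the same in UMIs per nucleus. Tac2, which encodes the tachykinin neurokinin B, was split the same way, at 303 to 457 CPM against 108 to 162 CPM. Cck was also higher in every shallower library (177 to 357 CPM) than in every deeper one (85.6 to 154 CPM). Adarb2, an RNA-editing enzyme homologue that marks caudal-eminence interneurons, went the other way, at 8393 to 9993 CPM against 13893 to 14561 CPM. Gad2 did not separate the sets (243 to 427 CPM over all libraries). The part of nuclear quality in these differences was not tested. For each comparison of surgeries below, the number of genes that passed is given with and without a term for the set. Gene lists, share tests and some single genes are given without it, except where stated.

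**Figure D1:**
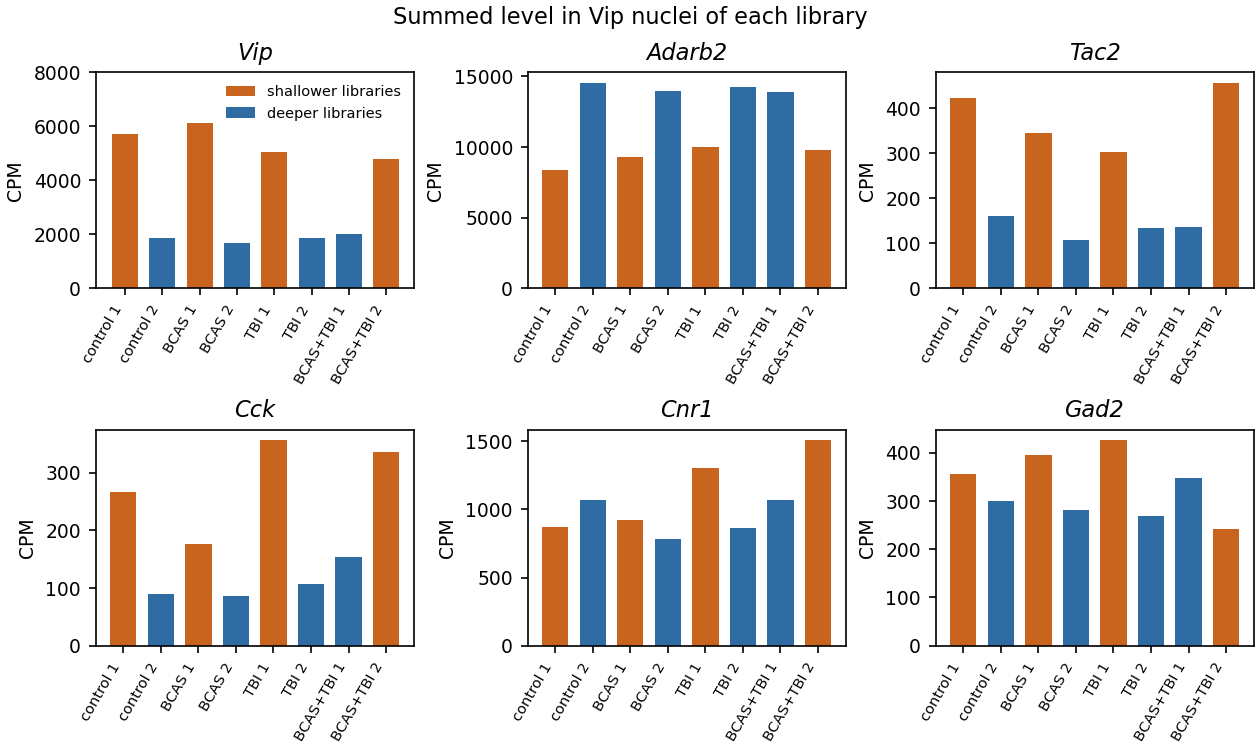
Level of 6 genes (CPM, bars from 0) in the summed Vip nuclei of each library, coloured by library set. Vip, Tac2 and Cck are higher in the 4 shallower libraries and Adarb2 in the 4 deeper ones, whatever the surgery.

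The label was checked against marker genes. All 10 genes of the Vip marker list were detected, and their summed level was 15694 to 17527 CPM. Of these, Vip and Gad2 were used by the limits, so part of this sum was set by the choice of nuclei. Adarb2, Calb2, Htr3a, Prox1, Npas1, Cck, Crh and Tac2 were not used. Vip and Adarb2 made up most of the sum in every library, for example 1874 and 14561 CPM in control 2. Markers of other cells were low, although the limits themselves capped Sst, Pvalb, Slc17a7 and Slc17a6 in their lists. The Lamp5 list summed to 157 to 362 CPM, the Sst list to 255 to 353 CPM with Chodl at 0, and the Pvalb list to 159 to 287 CPM. The excitatory list summed to 339 to 485 CPM, of which Camk2a, present in all interneuron sets, made 311 to 411 CPM. The striatal list summed to 390 to 1035 CPM, of which the phosphodiesterase Pde10a made 346 to 883 CPM, while Drd2 had 4 UMIs in all and Ppp1r1b had 7. Astrocyte, oligodendrocyte and microglia lists summed to at most 65.3, 212 and 85.5 CPM, with Aqp4, Mog and Cx3cr1 at 0 by the limits and Tmem119 at 0 without them. The list of hypothalamic Vip neuron genes summed to 7.06 to 149 CPM, highest in BCAS+TBI 2, and Rorb, which cortical neurons also carry, made 5.74 to 140.0 CPM. Of the other list genes, Six6, Lhx1 and Nms had 1 UMI each in the 321 nuclei, Avp had 4 and Prok2 had 5.

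How sharp the lower limit on Vip is can be read from the GABA nuclei that met the Sst and Pvalb limits. Of these, 3885 had no UMI of Vip, 197 had 1, 34 had 2, 94 had 3 to 7 and 193 had 8 or more. Adarb2 was at 2171 CPM with no Vip UMI, 5005 CPM with 1 and 9094 CPM with 2, which is the step at the limit. It was at 11078 CPM with 3 to 7 Vip UMIs and 14579 CPM with 8 or more. Prox1, a transcription factor of caudal-eminence interneurons, followed at 30.3, 58.5, 116, 232 and 237 CPM. At the Gad limit, 118 nuclei were just inside with 2 UMIs and 119 just outside with 1, and their Adarb2 levels were 13065 and 9678 CPM. The glial limit left out 46 nuclei with a single glial UMI, whose Adarb2 level was 9878 CPM. Free RNA can add stray UMIs: 4.58% of 11784 excitatory nuclei (median 7321 UMIs) and 4.16% of 2622 glial nuclei (median 2156 UMIs) held at least 1 UMI of Vip. At least 2 UMIs were held by 33 excitatory nuclei (0.28%, exact 95% interval 0.193% to 0.393%) and 9 glial nuclei (0.343%, 0.157% to 0.651%), intervals that cover counting error only.

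Vip nuclei were then set beside 527 Sst, 183 Pvalb and 236 Lamp5 nuclei of the same libraries, chosen by their own gene in the same manner. These contrasts chose the nuclei, so levels are described without a test. Among genes averaging at least 50 CPM, 333 were higher and 432 lower in Vip than in Sst nuclei in all 8 libraries. The corresponding numbers were 449 and 548 against Pvalb nuclei, and 267 and 382 against Lamp5 nuclei.

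Genes of caudal-eminence identity came first. Adarb2 was at 8393 to 14561 CPM in Vip nuclei (median 11943), at 22.6 to 330 CPM in Sst nuclei, 5.48 to 870 CPM in Pvalb nuclei and 3367 to 6568 CPM in Lamp5 nuclei. Vip nuclei were thus highest in every library, and the Lamp5 nuclei, of the same origin, stood between them and the others. Prox1 was at 169 to 252 CPM, against at most 16.2 CPM in Sst, 42.3 CPM in Pvalb and 109 CPM in Lamp5 nuclei. Npas1, a transcriptional repressor, was at 69.9 to 149 CPM and at most 62.9 CPM in the other sets. Lhx6, the factor that specifies medial-eminence interneurons, had 5 UMIs in all Vip nuclei, against 50.8 to 89.3 CPM in Sst nuclei.

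Secreted and signalling molecules set Vip nuclei apart from all 3 other sets. Tac2 was at 108 to 457 CPM in Vip nuclei, with ranges of 0 to 53.6 CPM in Sst, 0 to 7.45 CPM in Pvalb and 0 to 102 CPM in Lamp5 nuclei. Crh, which encodes corticotropin-releasing hormone, was at 46.6 to 196 CPM and at most 24.9 CPM elsewhere. The chemokine gene Cxcl14 was at 135 to 264 CPM and at most 93.0 CPM elsewhere. Igf1, a growth factor that Vip cells are known to produce, was at 240 to 502 CPM, against 39.5 to 110 CPM in Sst, 0 to 15.6 CPM in Pvalb and 95.2 to 156 CPM in Lamp5 nuclei. For Crh, Cxcl14, Igf1 and Tac2 the lowest Vip library lay above the highest library of the other sets. The peptide gene Penk was less clear-cut, at 69.9 to 368 CPM in Vip and 0 to 150 CPM in Lamp5 nuclei.

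Receptors followed. The cannabinoid receptor gene Cnr1 was at 787 to 1512 CPM in Vip nuclei, at 92.0 to 135 CPM in Sst, 4.70 to 37.1 CPM in Pvalb and 146 to 324 CPM in Lamp5 nuclei. The adrenergic receptor gene Adra1b was at 134 to 300 CPM and at most 82.0 CPM elsewhere. The ionotropic serotonin receptor gene Htr3a, often used to define this lineage, was low at 21.5 to 63.6 CPM, but reached at most 2.73 CPM in the other sets. Npy1r, a receptor for neuropeptide Y, was at 57.4 to 123 CPM and at most 22.0 CPM elsewhere. Of the receptors for the VIP family, Adcyap1r1 was at 82.8 to 127 CPM in Vip nuclei, while Vipr1 and Vipr2 had 20 and 13 UMIs in all. Adcyap1, the gene of the related peptide PACAP, had 2 UMIs, so these 3 genes were too low to compare between libraries.

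Several further genes were high in Vip nuclei, and most of them were shared with part of the other sets. The vesicle protein gene Synpr was at 1157 to 2127 CPM in Vip and 646 to 1230 CPM in Sst nuclei, and at most 118 CPM in Pvalb and Lamp5 nuclei. Egfr and Kit, genes of receptor tyrosine kinases, were at 267 to 577 and 205 to 355 CPM in Vip nuclei, and at most 68.9 CPM in Sst and Pvalb nuclei. Lamp5 nuclei had as much Egfr (243 to 443 CPM, with Vip nuclei higher in 4 of 8 libraries) and more Kit (302 to 709 CPM, Vip nuclei lower in 8 of 8). Sorcs3, a sorting receptor gene, was at 869 to 1837 CPM against at most 440 CPM. Erbb4, the neuregulin receptor gene, was at 5236 to 9475 CPM, above Sst nuclei (911 to 1847 CPM) in all libraries and overlapping Pvalb and Lamp5 nuclei.

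Other genes were low in Vip nuclei. Nxph1, which encodes a ligand of neurexins, was at 96.9 to 451 CPM in Vip nuclei and at 1153 CPM or more in every library of the 3 other sets. Reln was at 49.4 to 253 CPM, against 570 to 1097 CPM in Sst and 944 to 1563 CPM in Lamp5 nuclei. The NMDA receptor subunit gene Grin3a was at 74.7 to 155 CPM, against 722 to 1170 CPM in Sst nuclei. Elfn1, whose protein shapes excitatory input onto Sst cells, was at 77.7 to 140 CPM, between Sst nuclei (203 to 303 CPM) and Pvalb and Lamp5 nuclei (at most 31.8 CPM). Of the genes that make and handle GABA, Gad1 was higher in Vip than in Sst nuclei in 8 of 8 libraries (264 to 468 against 143 to 240 CPM). Gad2 was lower than in Lamp5 nuclei in 8 of 8 libraries (243 to 427 against 612 to 854 CPM). Gad1 and Gad2 were used to choose all of these sets, by the same limit of 2 UMIs together. Median depth differed, at 5126 UMIs in Vip, 7341 in Sst and 6980 in Lamp5 nuclei. The part of this limit in both differences was not tested.

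**Figure D2:**
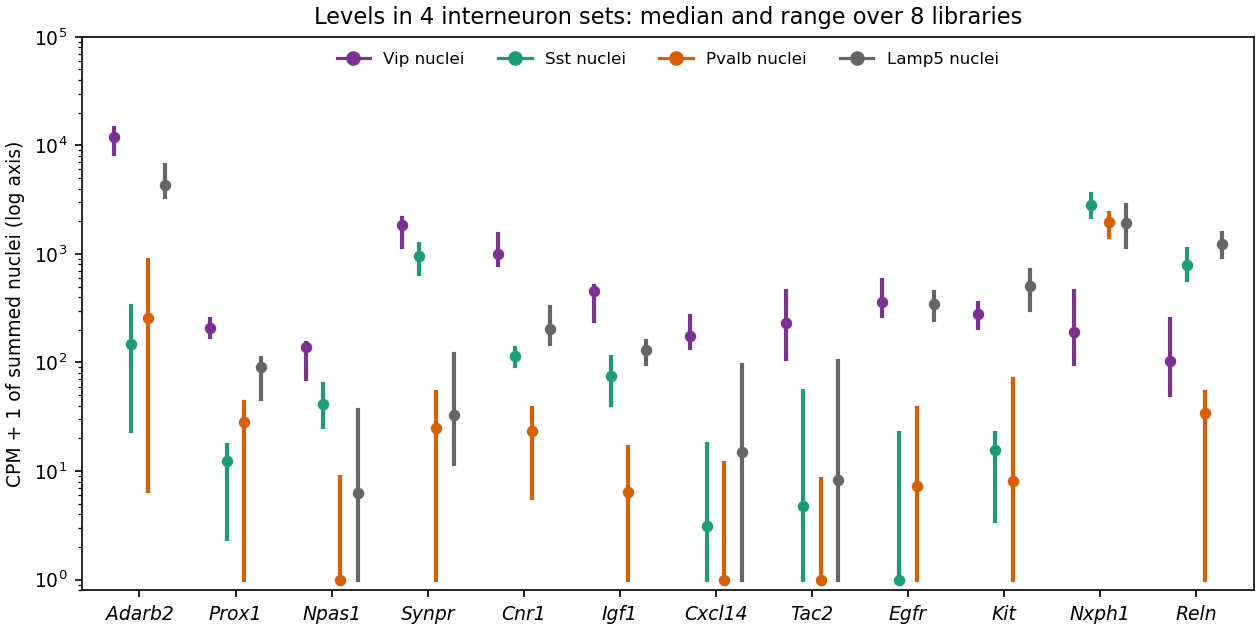
Median (point) and range (line) over 8 libraries of CPM + 1 (log axis) for 12 genes in the summed Vip, Sst, Pvalb and Lamp5 nuclei. The Vip nuclei lie above the other sets for Adarb2, Prox1, Cnr1, Igf1, Cxcl14 and Tac2, overlap the Lamp5 nuclei for Egfr and Kit, and lie lowest for Nxph1.

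The Vip nuclei were not uniform. After each of 314 nuclei was thinned to 2000 UMIs (7 nuclei were shallower), the genes with the largest ratio of variance to mean were Nrg1, Malat1, Adarb2, Cntnap2, Kcnip4, Lrrtm4, Col25a1, Ntng1, Nxph1 and Nrxn3. Some of these were seen in nearly all nuclei, such as Adarb2 in 97.8% and Nrxn3 in 99.7%. Others came from a small number of nuclei. The collagen gene Col25a1 was seen in 16.9% of the nuclei, and 31 nuclei held 87.8% of its UMIs. Those with the most Ntng1 (which encodes netrin-G1) and Nxph1, again 31 nuclei for each gene, held 91.2% and 89.2% of their UMIs.

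Peptide and subtype genes were each seen in part of the nuclei. In the thinned nuclei, Tac2 had a UMI in 23.9% of Vip nuclei (36.6% before thinning), Cxcl14 in 22.3% (37.6%), Penk in 19.1% (33.1%) and Crh in 14.0% (26.8%). In thinned excitatory nuclei, Tac2, Cxcl14, Penk and Crh had a UMI in 0.542%, 0.732%, 2.01% and 0.138%. Cck had a UMI in 17.8% of thinned Vip nuclei (32.5% before thinning) and in 11.4% of thinned excitatory nuclei, a cell type that transcribes it. At the same depth, a Cck UMI was seen in 2.29% of Sst, 4.95% of Pvalb and 9.36% of Lamp5 nuclei. The share in Vip nuclei was above these. Single libraries overlapped, at 5.77% to 34.5% in Vip and 3.03% to 22.2% in Lamp5 nuclei. Calb2 was seen in 4.78% of Vip nuclei (11.8% before thinning), against 1.47% of thinned excitatory and 1.53% of thinned Sst nuclei (4.44% and 5.74% before thinning). Chat was seen in 3.82% (7.32%) and in 0.198% of thinned excitatory nuclei.

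Genes of these subtypes met in the same nuclei unevenly. Crh had a UMI in 84 Vip nuclei, of which 63.1% also had one of Tac2, against 26.6% of the 237 nuclei without Crh. Cxcl14 was seen in 67.9% and 26.2% of the same groups, whose median depths were 5289 and 5111 UMIs. For Tac2, the direction held in shallower (67.9% against 22.8%) and deeper libraries (60.7% against 28.5%). Cck nuclei had Tac2 more often than nuclei without Cck (52.9% against 28.1%) and Penk less often (20.2% against 38.2%), at medians of 5768 and 4976 UMIs. Of the 37 nuclei with Calb2, 59.5% had Penk, against 28.9% of the others, with no correction for the Calb2 share seen in other classes. Of the 23 nuclei with Chat, 43.5% had the neuropeptide Y receptor gene Npy2r, against 15.1% of the others. These shares describe nuclei that share libraries and depth, and no test was run on them.

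The opposite pattern of Cck and Penk was followed further, a choice made after its values were seen. In all, 83 Vip nuclei had Cck and no Penk, another 83 had Penk and no Cck, 21 had both and 134 neither. The summed Cck nuclei were at 1196 CPM of Col25a1 and the Penk nuclei at 33.5 CPM, with a UMI in 53.0% and 13.3% of them. The log2 ratio was 5.19 in the shallower and 4.61 in the deeper libraries (with 10 CPM added to each level here and below). Col25a1 and the genes that follow in this paragraph were picked for the same direction in both sets. That agreement was thus fixed by the choice. Frem1, an extracellular matrix gene, was at 368 against 16.7 CPM, and the receptor phosphatase gene Ptprm at 475 against 31.4 CPM. Col19a1, another collagen gene, was at 455 against 52.3 CPM. Cadps2, a gene of vesicle release, was at 1068 against 146 CPM.

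Penk nuclei led in a different group of genes, of which those from Grm8 to Ptprt were picked in the same manner. Grm8, a presynaptic glutamate receptor gene, was at 1445 CPM in Penk nuclei and 206 CPM in Cck nuclei, with a UMI in 84.3% and 33.7% of them. The semaphorin genes Sema5a (303 against 55.9 CPM) and Sema5b (238 against 39.7 CPM) were both higher in Penk nuclei, as was the cadherin gene Cdh7 (186 against 27.1 CPM). Wnt5b was at 261 against 57.7 CPM and the phosphatase gene Ptprt at 657 against 112 CPM. Calb2 was at 50.2 against 10.8 CPM. Among the genes that set Vip nuclei apart as a whole, Cnr1 was at 1763 CPM in Cck and 552 CPM in Penk nuclei, and Adarb2 at 18557 and 9758 CPM. Vip, which differs between the library sets, was at 4848 CPM in Cck and 6971 CPM in Penk nuclei of the shallower libraries, and at 1726 and 1900 CPM in those of the deeper libraries.

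**Figure D3:**
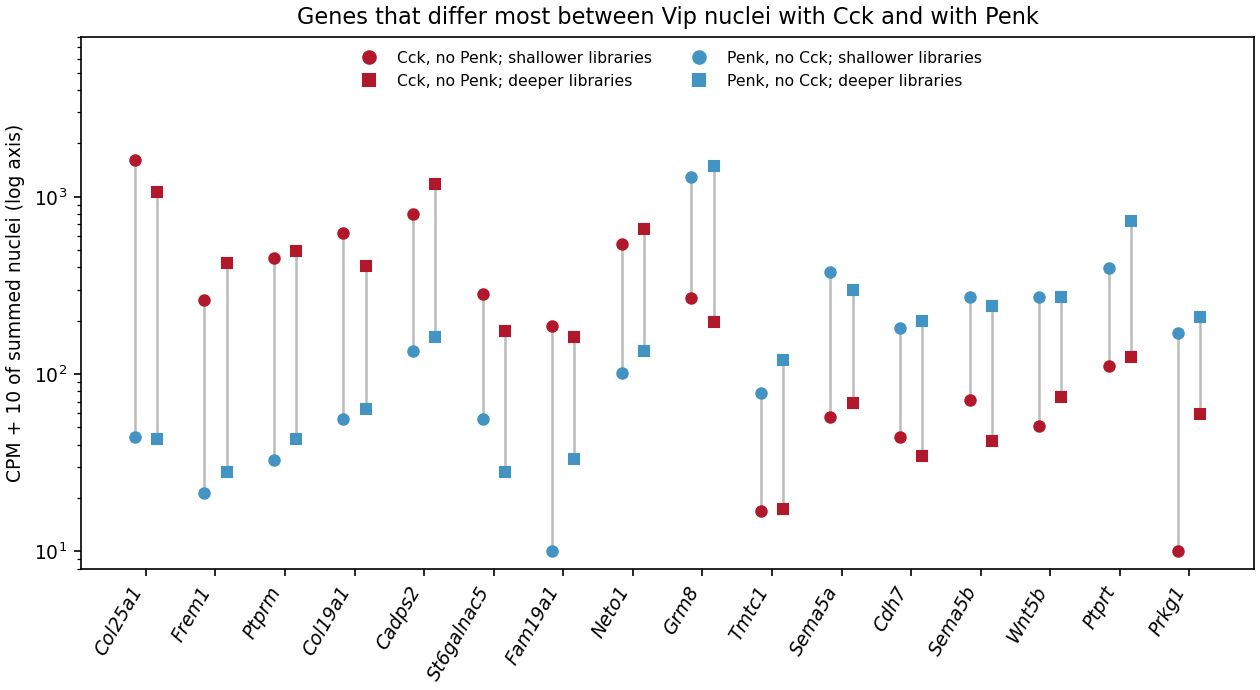
Level (CPM + 10, log axis) of the 8 genes highest in each direction in the summed Vip nuclei with Cck and no Penk (red) and with Penk and no Cck (blue), in shallower (circles) and deeper (squares) libraries. The genes were picked for this difference in both library sets, from Col25a1 (1196 against 33.5 CPM) to Grm8 (206 against 1445 CPM).

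Both kinds of nuclei were present in every library. Those with Cck and no Penk numbered 6 of 24 in control 1, 14 of 58 in control 2, 8 of 33 in BCAS 1, 11 of 52 in BCAS 2, 7 of 27 in TBI 1, 18 of 60 in TBI 2, 10 of 44 in BCAS+TBI 1 and 9 of 23 in BCAS+TBI 2, or 21.2% to 39.1%. Penk nuclei without Cck made up 18.5% to 36.4%, with TBI 1 lowest and BCAS+TBI 1 highest. The ranges of libraries with and without TBI surgery overlapped for both.

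The share of Vip nuclei was compared between surgeries. Among all nuclei kept, control 1 had 0.475% and control 2 had 1.03%, BCAS 1 had 0.656% and BCAS 2 had 0.822%, TBI 1 had 0.547% and TBI 2 had 0.835%, and BCAS+TBI 1 had 0.783% and BCAS+TBI 2 had 0.463%. The shallower libraries (0.463% to 0.656%) lay below the deeper ones (0.783% to 1.03%), and control 2 was highest with an exact 95% interval of 0.781% to 1.33%. With TBI surgery the mean was 0.657% ± 0.180 (SD, n = 4), and without it 0.745% ± 0.236 (SD, n = 4), a difference smaller than the spread (exact two-sided permutation test over 70 assignments, p = 0.60, adjusted over 4 tests 0.857). With BCAS surgery it was 0.681% ± 0.162 and without it 0.721% ± 0.257 (SD, n = 4 each, exact permutation p = 0.771, adjusted 0.857). Within the deeper libraries the TBI difference was -0.115 percentage points and within the shallower ones -0.0600. For BCAS it was -0.129 in the deeper and 0.0482 in the shallower libraries, so the direction differed. Without control 2, the TBI difference was 0.00658 and the BCAS difference 0.0619, and without BCAS+TBI 2 the BCAS difference was 0.0323. With at least 3 UMIs of Vip required, the TBI difference was -0.147 (exact permutation p = 0.314, adjusted 0.629).

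Among GABA nuclei the library sets overlapped, with 5.31% in control 1, 8.18% in control 2, 6.65% in BCAS 1 and 5.81% in BCAS 2. The 4 libraries with TBI surgery were close together, with 5.88% in TBI 1, 6.01% in TBI 2, 5.99% in BCAS+TBI 1 and 6.02% in BCAS+TBI 2. The libraries with TBI surgery averaged 5.98% ± 0.0644 and those without it 6.49% ± 1.26 (SD, n = 4 each, exact permutation p = 0.629, adjusted 0.857). Those with BCAS surgery averaged 6.12% ± 0.368 and those without it 6.35% ± 1.26 (SD, n = 4 each, exact permutation p = 0.857, adjusted 0.857). The smallest p this design allows is 0.0286. Control 2 was the highest library here too, and without it both differences changed sign, to 0.0531 for TBI and 0.385 for BCAS. Within the deeper libraries the differences were -0.992 for TBI and -1.19 for BCAS, and within the shallower ones -0.0298 and 0.741. With at least 3 UMIs of Vip required, the TBI difference was -1.14 (5.02% against 6.16%, exact permutation p = 0.114, adjusted 0.457). With each nucleus thinned to 1000 UMIs, which left 0 to 9 Vip nuclei per library, it was -2.68 (1.75% against 4.43%, exact permutation p = 0.0857, adjusted 0.171). No difference in the share of Vip nuclei passed the test in these settings.

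**Figure D4:**
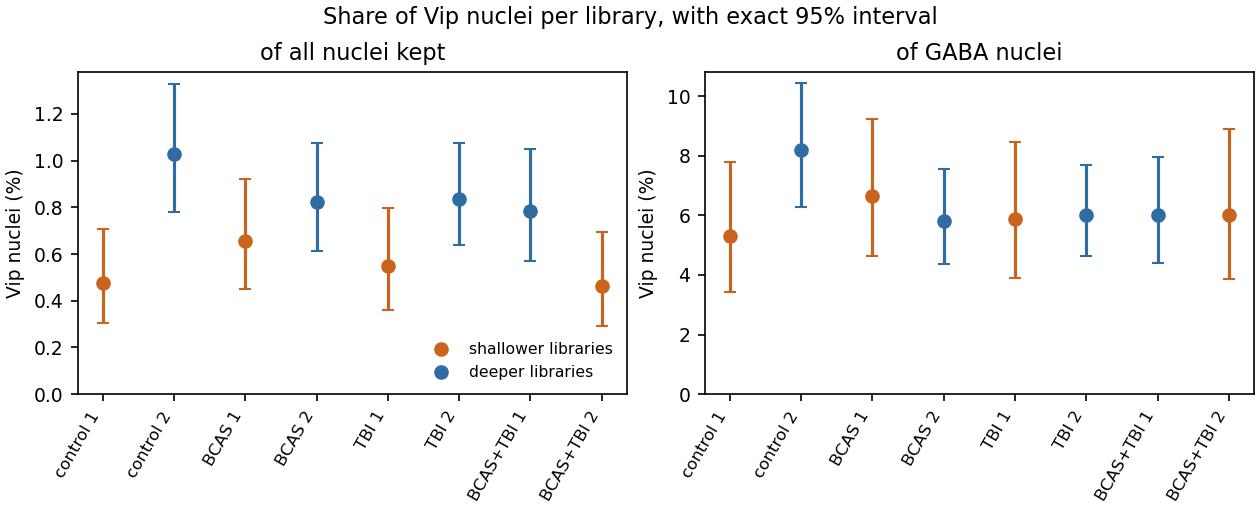
Vip nuclei as percent of all nuclei kept (left) and of GABA nuclei (right) in each library, with the exact 95% binomial interval, coloured by library set. Control 2 is highest in both panels (1.03% and 8.18%), and the groups overlap.

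Gene levels in Vip nuclei were then tested between surgeries, each averaged over the other, by edgeR's quasi-likelihood test on 4869 genes with Benjamini-Hochberg adjustment and a threshold of 0.05. No gene passed for TBI surgery (0.0% of genes) or for BCAS surgery (0.0%). None passed for BCAS+TBI against TBI (0.0%) or for the interaction of both surgeries (0.0%). Unadjusted p under 0.05 was reached by 64, 46, 44 and 59 genes in these 4 comparisons. DESeq2 also called 0 genes in each, with 13, 9, 5 and 12 at unadjusted p under 0.05. These numbers lay below what that unadjusted threshold alone lets through when nothing differs. Without a term for the library set, the difference between the sets counted as spread. The absence of genes past the threshold thus does not show that no gene changed. With the library set as a further term, 0 genes passed for TBI (208 at unadjusted p under 0.05) and 0 for BCAS+TBI against TBI (179). With that term, 1 gene passed for BCAS (0.0205%) and 1 for the interaction (0.0205%). The difference between the library sets itself passed for 572 of 4869 genes (11.7%), 408 higher in the shallower and 164 in the deeper set. The counts for the surgeries moved when 1 library was left out with the term kept, in fits added after the data were seen. For TBI, 4 genes passed without control 1, 2 without TBI 1 and 0 without any other library. For BCAS, 0 passed without control 2, 1 without TBI 1 or BCAS+TBI 1, 2 without BCAS 2 or BCAS+TBI 2, and 4 without control 1, BCAS 1 or TBI 2. For BCAS+TBI against TBI, 0 passed without control 2, 1 without TBI 1, BCAS+TBI 1 or BCAS+TBI 2, 2 without control 1, BCAS 1 or BCAS 2, and 3 without TBI 2. For the interaction, 0 passed without control 2 or TBI 2, 2 without BCAS 2, 4 without BCAS 1 or BCAS+TBI 1, and 6 without control 1, TBI 1 or BCAS+TBI 2.

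For TBI surgery, the 5 genes with the smallest p-values were Col19a1, Pde11a, Pxk, Mtmr12 and Gpc5, none past the threshold. Col19a1 was at 268 and 240 CPM in control 1 and 2, 134 and 108 CPM in BCAS 1 and 2, 357 and 276 CPM in TBI 1 and 2, and 280 and 373 CPM in BCAS+TBI 1 and 2. All 4 libraries with TBI surgery lay above all 4 without it, at 322 ± 51.0 against 187 ± 78.3 CPM (SD, n = 4 each). The fitted log2 difference was 0.89 (SE 0.23), with an edgeR adjusted p of 1.0, and 0.85 with an adjusted p of 0.334 with the library set term. Col19a1 is also one of the genes that was high in Cck nuclei, and it had a UMI in 84 of the 321 Vip nuclei. Pxk was at 126 to 171 CPM with TBI surgery and 78.0 to 91.1 CPM without it, again without overlap. The phosphatase-like gene Mtmr12 was at 31.1 to 46.7 against 55.7 to 92.8 CPM, also without overlap. These genes were picked for their small p-values. How many of the 4869 genes tested separate the libraries in this way was not counted. The proteoglycan gene Gpc5 had ranges that overlapped (31.6 to 85.5 CPM with TBI surgery and 44.6 to 339 CPM without it).

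The lists of Vip subtype, synaptic, receptor, activity and injury genes held no gene past the threshold for TBI. Of the Vip subtype list, 19 of 34 genes were measured well enough to be tested, and 11 were higher and 8 lower, with a median log2 difference of 0.02, against 0.00 over all genes tested. All 7 genes of GABA synthesis, packing and uptake were tested, with 2 higher and 5 lower (median -0.02). Of the ionotropic glutamate and GABA-A receptor genes, 21 of 24 were tested, with 9 higher and 12 lower (median -0.03). All 22 genes of synapse formation and adhesion were tested, with 12 higher and 10 lower (median 0.03). Of the neuromodulator receptors, 10 of 27 were tested, with 6 higher and 4 lower (median 0.03). With the library set term, 6 of the 19 Vip subtype genes reached unadjusted edgeR p under 0.05, against 208 of all 4869 genes. So did 2 of the 10 neuromodulator receptor genes, 1 of 22 synapse genes, and 0 of the 7 GABA and 21 ionotropic receptor genes. Without the term it was 1 Vip subtype gene, 1 synapse gene and 64 of all genes. None of the list genes passed the threshold.

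Genes that respond to firing or damage were mostly too low in these nuclei to be tested, at 4 of 25 activity-induced and 2 of 18 injury genes. The immediate early gene Egr1 was at 0 and 9.51 CPM in control 1 and 2, 7.06 and 11.04 CPM in BCAS 1 and 2, 38.9 and 48.8 CPM in TBI 1 and 2, and 57.4 and 0 CPM in BCAS+TBI 1 and 2. It was above every library without TBI surgery in 3 of 4 libraries with it and at 0 in BCAS+TBI 2, and it did not pass the test (log2 2.17, edgeR adjusted p 1.0). All of Egr1 amounted to 47 UMIs. Fos had 25 UMIs in all 321 nuclei, Npas4 6, and the axon injury gene Atf3 1, while Sprr1a and Socs3 had none, so changes in these could not be detected at this depth. Among heat shock and chaperone genes, 8 of 13 were tested, with 1 higher and 7 lower (median -0.09).

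For BCAS surgery, Ntng1 passed once the library set was in the model. Ntng1 was at 78.0 and 54.7 CPM in control 1 and 2, 515 and 215 CPM in BCAS 1 and 2, 373 and 109 CPM in TBI 1 and 2, and 248 and 308 CPM in BCAS+TBI 1 and 2. Within each library set the libraries with BCAS surgery were higher than control, but TBI 1 overlapped them. The log2 difference was 1.40 (SE 0.39, adjusted p 1.0) without and 1.37 (SE 0.22, edgeR adjusted p 0.0106) with the set term. With the set term it missed the threshold without control 2 (adjusted p 0.223) and without BCAS+TBI 1 (0.0990). A single nucleus held 62 of 78 Ntng1 UMIs in BCAS 2, 61 of 69 in BCAS+TBI 1, 37 of 73 in BCAS 1 and 24 of 48 in TBI 1. When the nucleus with most UMIs of a gene was left out in each library, the log2 difference of Ntng1 fell to 0.21 with the set term (adjusted p 1.0).

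Mid1, Ppp1r14c and Tmem181b-ps were also among the genes with the smallest p-values for BCAS surgery, and none of these 3 passed the threshold. Ppp1r14c, which encodes a phosphatase inhibitor, was at 44.6 and 42.8 CPM in control 1 and 2, 77.7 and 35.9 CPM in BCAS 1 and 2, 15.5 and 17.2 CPM in TBI 1 and 2, and 86.1 and 74.7 CPM in BCAS+TBI 1 and 2. Its ranges with and without BCAS surgery overlapped (log2 1.26, edgeR adjusted p 1.0). The Vip subtype list had 8 of 19 tested genes higher and 11 lower (median -0.03), and the receptor list 7 of 21 higher and 14 lower (median -0.03), against a median of 0.00 over all genes. Of the genes of synapse formation, 13 of 22 were higher and 9 lower (median 0.02).

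In BCAS+TBI against TBI, Nxph1 had the smallest p-value with the set term, but stayed short of the threshold (log2 -1.77, adjusted p 0.0573). Nxph1 was at 145 and 219 CPM in control 1 and 2, 240 and 339 CPM in BCAS 1 and 2, 163 and 451 CPM in TBI 1 and 2, and 96.9 and 103 CPM in BCAS+TBI 1 and 2. Both libraries with both surgeries were thus below all 6 others. For the interaction it passed with the set term, at a log2 of -2.45 (SE 0.43, edgeR adjusted p 0.0341), and not without it (log2 -2.31, adjusted p 1.0). With the set term it missed the threshold without control 2 (0.882), TBI 2 (0.791) or BCAS+TBI 1 (0.384). Single nuclei weighed heavily here too, with 58 of 92 UMIs in 1 nucleus of control 2 and 77 of 123 in 1 of BCAS 2. Without the top nucleus of each library the interaction was -2.84 with the set term (adjusted p 0.0962). For comparison, Nxph1 in the other interneurons was at 1904 to 2982 CPM, with BCAS+TBI 1 and 2 at 2732 and 1904 CPM.

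The gene lists held no gene past the threshold in these comparisons either. Of the 22 genes of synapse formation and adhesion, 7 were higher and 15 lower in BCAS+TBI than in TBI (median log2 -0.09), and the interaction was above 0 for 3 and below 0 for 19 (median -0.22). Over all genes tested the medians were 0.00 and -0.00. Of the 19 Vip subtype genes tested, 9 were higher and 10 lower in BCAS+TBI than in TBI (median -0.00), and the interaction was above 0 for 12 and below 0 for 7 (median 0.13). The 7 GABA genes had 2 higher and 5 lower (median -0.12) and an interaction above 0 for 2 and below 0 for 5 (median -0.17). Of the 21 ionotropic receptor genes, 10 were higher and 11 lower (median -0.03), and the interaction was above 0 for 9 and below 0 for 12 (median -0.02).

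**Figure D5:**
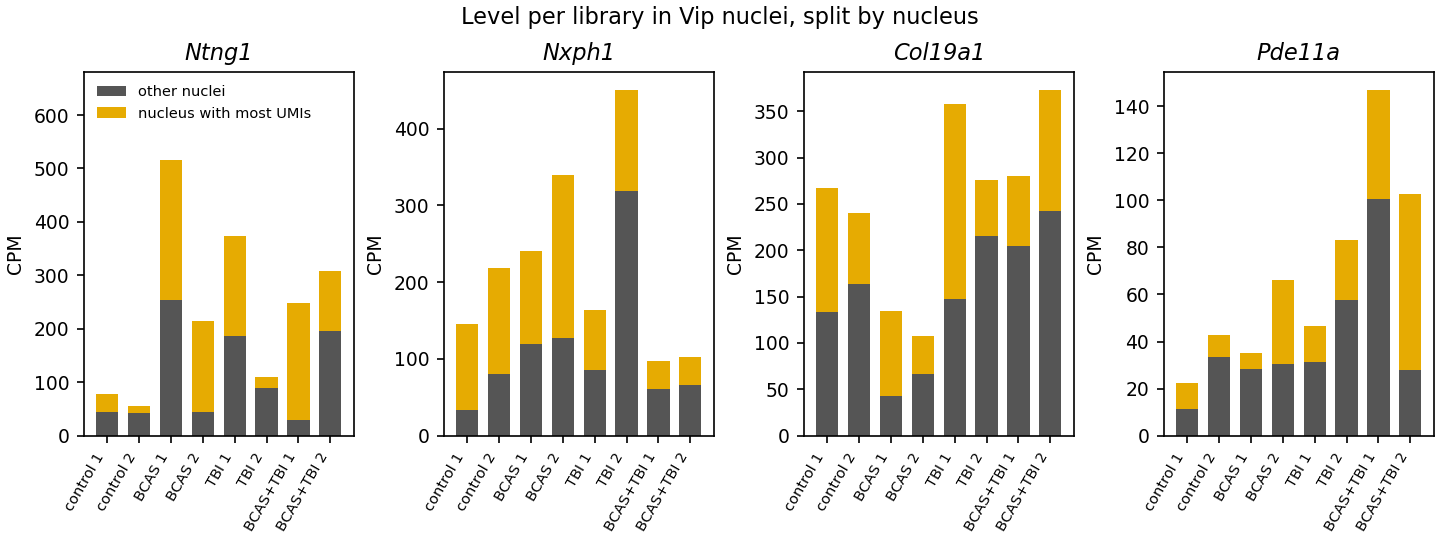
CPM of Ntng1, Nxph1, Col19a1 and Pde11a in the summed Vip nuclei of each library (bars from 0), with the part that came from the nucleus with the most UMIs in yellow. For Ntng1, 1 nucleus gave most of the level in BCAS 2 and BCAS+TBI 1 (62 of 78 and 61 of 69 UMIs).

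Whether Vip nuclei responded differently from other interneurons was tested by the difference of the surgery effect between Vip nuclei and the summed Sst, Pvalb and Lamp5 nuclei of the same libraries (9400 genes, edgeR). For TBI surgery, 0 genes passed (0.0%), with 362 at unadjusted p under 0.05. With the library set term, Gpc5 passed for TBI (log2 -2.04, adjusted p 0.00134, 1 gene or 0.0106%). It also passed in 6 of the 8 fits that left out 1 library without that term, and not without control 1 or BCAS 1. Gpc5 overlapped between Vip nuclei with and without TBI surgery, as given above, and lay between 169 and 234 CPM with it and 76.1 and 319 CPM without it in the other interneurons. In Vip nuclei, 1 nucleus held 28 of 35 Gpc5 UMIs in control 2, 29 of 48 in BCAS 1, 20 of 41 in BCAS 2 and 10 of 11 in TBI 1. Without the top nucleus of each library and without the set term, the log2 difference between classes was -1.29 (adjusted p 1.0), against -1.81 with all nuclei (0.266).

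For BCAS surgery, 2 genes passed (0.0213%), with 372 at unadjusted p under 0.05. Pde11a, which encodes a phosphodiesterase that breaks down cAMP and cGMP, was at 22.3 and 42.8 CPM in control 1 and 2, 35.3 and 66.2 CPM in BCAS 1 and 2, 46.6 and 83.3 CPM in TBI 1 and 2, and 147 and 103 CPM in BCAS+TBI 1 and 2 in Vip nuclei. Within Vip nuclei, both libraries with both surgeries were above the other 6. In the other interneurons it was at 112 and 211 CPM in the control libraries, 90.2 and 93.3 CPM with BCAS alone, 113 and 141 CPM with TBI alone and 92.0 and 66.5 CPM with both. There the 4 libraries with BCAS surgery lay below the 4 without it. The difference between both classes was a log2 of 1.55 (SE 0.30, edgeR adjusted p 0.0197). Against Sst nuclei alone it was 0.26 (adjusted p 0.998), without the top nucleus of each library 1.49 (0.729), and it missed the threshold without control 2 (0.0595), BCAS 2 (0.267) or BCAS+TBI 1 (0.156).

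Mctp2, a gene of a calcium-binding membrane protein, also passed (edgeR adjusted p 0.00298). It had no UMI in the Vip nuclei of the 4 libraries without BCAS surgery, 1 and 7 in BCAS 1 and 2, and 13 and 2 in BCAS+TBI 1 and 2. These came from 5 nuclei, with 13 UMIs in a single one, and no fold is given. In the other interneurons Mctp2 was at 13.3 to 35.0 CPM in all 8 libraries. Without BCAS+TBI 1 the adjusted p was 0.0762, and without the top nucleus of each library it was 1.0.

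With the library set term, 4 genes passed for the BCAS difference between classes (0.0426%). They were Mctp2, Pde11a, the predicted gene Gm28928, which lies outside the rule for named genes, and Rorb. Rorb, a nuclear receptor gene best known from excitatory neurons of cortical layer 4, was at 11.1 and 9.51 CPM in control 1 and 2, 7.06 and 35.9 CPM in BCAS 1 and 2, 54.4 and 5.74 CPM in TBI 1 and 2, and 75.3 and 140.0 CPM in BCAS+TBI 1 and 2 in Vip nuclei. Both libraries with both surgeries were highest, and BCAS 1 lay below control. Its log2 difference was 2.36 with the set term (edgeR adjusted p 0.0409) and 2.28 without it (0.129). A single nucleus held 14 of 21 Rorb UMIs in BCAS+TBI 1, 11 of 15 in BCAS+TBI 2 and 5 of 7 in TBI 1. Without the top nucleus of each library and without the set term it was 2.61 (adjusted p 1.0).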

How the data were processed

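Nuclei of 8 libraries were sequenced with the Chromium 3′ kit. The authors deposited raw UMI counts, 1 matrix for each library, and per the file headers these came from Cell Ranger 7.0.0, and the submitters' processing notes list Seurat and GRCm38/mm10. Totals were 28118725 to 56135192 UMIs per library. The Vip nuclei and gene lists were chosen with earlier results of these data known. Counts were summed per library, and gene tests used edgeR 4.0.16 in R 4.3.3, with the 4 groups as coefficients over 8 libraries (TMM, filterByExpr with a minimum count of 10, two-sided). The difference between classes was fitted with library as a block and class by surgery terms. Shares were compared by exact permutation over libraries. Scripts were tested on simulated data.

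Alternatives were DESeq2 1.42.0, RLE normalization, other count filters, blocks for replicate number and for library set, Vip limits of 1 and 3 UMIs, 500 UMIs per barcode, removal of likely doublets, thinning, and leaving out each library. Leaving out the top nucleus of each gene, and leaving out each library with the library set term kept, were added after seeing the data. Scrublet (scanpy 1.11.5) marked at most 0.0403% of barcodes, so the highest 6% were left out in 1 alternative, and doublets were otherwise kept. They held 10 of the 321 Vip nuclei. Named genes were those past the threshold, or the 5 with the smallest p where fewer passed, without predicted and mitochondrial genes, and 1 gene that the rule names is not reported here. Against other interneurons, genes came from the 10 with the highest smallest ratio over libraries and from the lists, and within Vip nuclei from the 10 most variable. The p-values measure the spread between the libraries, and it is not given how many mice each holds.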

Additional observations from a re-analysis of the deposited data

Results flagged for a closer look

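Mctp2 and Pde11a stand here because they passed the test of a different BCAS effect in Vip nuclei and in the other interneurons. Mctp2 had an edgeR adjusted p of 0.00298, from 23 UMIs in 5 Vip nuclei of the 4 libraries with BCAS surgery and 0 UMIs in the 4 without it. Pde11a had an edgeR adjusted p of 0.0197, with a log2 difference of 1.55 between the classes. Against Sst nuclei alone the log2 difference of Pde11a was 0.26 (edgeR adjusted p 0.998), and no gene passed there. Without the top nucleus of each gene, neither Mctp2 nor Pde11a passed. With 2 libraries per group, single libraries could not be checked for outlying values within their group.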

How the results depend on the processing

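Over 580 alternative settings of 30 results, 511 kept the direction and the side of the threshold (counts: within 1.5 times), 24 counts moved, 8 shares changed sign, and single genes gained the threshold in 30 settings and lost it in 7. None of the gene results among these changed sign. Gene counts from fits that left out 1 library with the library set term kept were not part of this tally, and they moved more often. For BCAS surgery in Vip nuclei, 3 genes passed with no filter on low counts (the predicted gene Gm28928, Mctp2 and Tmem181c-ps), 1 with the library set block, and 1 without the top nucleus of each gene and with the set block (Gm28928). For the interaction, 1 passed with no filter (Foxp2) and 1 with the set block. For the TBI effect in Vip against other interneurons, 1 passed with no filter (Gpc5), 4 with a Vip limit of 3 UMIs, 3 with the replicate block and 1 with the set block. For the BCAS effect, 4 passed with no filter, 0 against Sst nuclei alone, 4 with the set block, 3 with the replicate block and 1 without the top nucleus. The causes were not tested.

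Without the library set term, leaving out 1 library at a time gave 0 genes for TBI, for BCAS+TBI against TBI and for the interaction, and 0 to 1 for BCAS, where Ntng1 passed without TBI 1 (adjusted p 0.0490). With that term it gave 0 to 4 genes for TBI, 0 to 4 for BCAS, 0 to 3 for BCAS+TBI against TBI and 0 to 6 for the interaction. The difference between classes gave 0 to 6 genes for TBI, with 0 without control 1 or BCAS 1 and 2 to 6 without any other library, and 3 to 6 for BCAS, with 6 without BCAS 1 or TBI 2. The share differences ranged from -0.178 to 0.00658 for TBI and -0.123 to 0.0619 for BCAS among all nuclei, and from -0.904 to 0.0531 and -0.572 to 0.385 among GABA nuclei. Thinned to 1000 UMIs, which left 0 to 9 Vip nuclei per library, the BCAS difference was 0.0197 among all nuclei and 0.00044 among GABA nuclei, and the TBI difference -0.0601 and -2.68. With a Vip limit of 1 UMI, the TBI difference among GABA nuclei was 0.180.

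Replicate numbers did not pair the libraries in the same way in all groups. The differences of replicate 1 and 2 correlated across genes at 0.324 to 0.368 among control, BCAS and TBI, and at -0.388 to -0.334 with BCAS+TBI. The signs followed the library sets, as replicate 1 was the shallower library in control, BCAS and TBI, and replicate 2 in BCAS+TBI. With the replicate block, 0 genes passed in each of the 4 comparisons of Vip nuclei, and the exact permutation p of the shares was 0.611 to 0.889. At 89718 to 420497 UMIs per library, the lowest genes tested rest on a handful of UMIs.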

Other observations

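Mid1, a gene of a microtubule-associated ubiquitin ligase, differed between libraries in the same manner in both classes of nuclei, a pattern noticed after its values were seen. In Vip nuclei it was at 0 and 14.3 CPM in control 1 and 2, 113 and 138 CPM in BCAS 1 and 2, 15.5 and 94.8 CPM in TBI 1 and 2, and 53.8 and 74.7 CPM in BCAS+TBI 1 and 2. In the other interneurons BCAS 1, BCAS 2, TBI 2 and BCAS+TBI 2 were at 84.0 CPM or more, and the 4 others at 24.0 CPM or less. The same 4 libraries were highest in Vip nuclei, and they cross both library sets and 3 groups. Its fitted log2 difference for BCAS in Vip nuclei was 1.68 (edgeR adjusted p 1.0), and the interaction was -3.73 with the library set term (adjusted p 0.109).

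Penk in Vip nuclei was at 368 and 80.9 CPM in control 1 and 2, 332 and 130 CPM in BCAS 1 and 2, 69.9 and 97.7 CPM in TBI 1 and 2, and 89.7 and 112 CPM in BCAS+TBI 1 and 2. The highest values were those of the shallower libraries without TBI surgery, and Penk did not pass for TBI (edgeR adjusted p 1.0 with and without the library set term). Gm28928, a predicted gene outside the rule for named genes, was at 23.3 to 383 CPM, and 24 of its 41 UMIs in BCAS+TBI 2 and 24 of its 54 in BCAS 1 came from 1 nucleus each.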
